A study of Mus musculus with 6 samples.

Results

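The Ly6 family surface antigens examined here are 7 genes of the mouse Ly6 cluster on chromosome 15: Ly6a, Ly6c1, Ly6c2, Ly6d, Ly6e, Ly6i and Ly6k. Every tested probe that carried one of these gene symbols was taken. Tested means well above background on all 3 arrays of either group, and dimmer probes were not counted. This gave 8 probes, 2 of them for Ly6c1, out of 33740 tested probes. The 7 genes stand among 16936 tested genes with a symbol. Their RNA was measured in whole spleen of female NOD mice, which are prone to autoimmune diabetes. From 6 weeks of age the animals received intraperitoneal MOTS-c, the small peptide that a mitochondrial reading frame encodes, at a dose of 0.5 mg/kg/day, or else a non-specific scrambled peptide, called vehicle here. The spleen was collected when they were 18 weeks old and had fasted for 16 to 18 h. Each group had 3 arrays, named vehicle 1 to 3 and MOTS-c 1 to 3. The question the arrays address is how spleen transcripts differ after MOTS-c treatment.

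Ly6 proteins are small cysteine-rich proteins that fold into finger-like loops and are held at the cell surface by a glycosylphosphatidylinositol anchor. In the spleen they serve as markers of cell type and activation: Ly6a encodes Sca-1, found on blood stem cells and on activated lymphocytes, and Ly6c1 and Ly6c2 encode the Ly-6C antigen of inflammatory monocytes, plasma cells, memory CD8 T cells and endothelium. Ly6d marks lymphoid progenitors committed to the B cell lineage. Interferons are known to induce several members, Ly6a and Ly6e among them. The NOD strain is known for a defect in Ly-6C expression on lymphocytes.

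All 8 probes were well above background on all 6 arrays, and none was saturated. Values are log2 of the processed signal minus that of the array's 75th percentile, so a level of 0 equals that percentile. The percentile itself was 678 signal units in vehicle 1 and lay between 841 and 926 on the other arrays. Per array, 61.8% to 64.0% of spots were well above background. Markers of spleen lymphocytes were measured throughout, with 18 of 18 listed T cell genes and 14 of 14 listed B cell genes tested. Vehicle 1 and vehicle 2 lay on slide 1, while vehicle 3 and the 3 MOTS-c arrays lay on slide 2, and each slide had its own scan. Genes of the pancreas stood far apart between arrays: the mean of 10 tested genes deviated by 4.26 in vehicle 3, 1.12 in vehicle 1 and -2.51 in MOTS-c 2. Whether the 3 samples of a group are different mice is not given in the labels, and the p-values therefore speak only of the spread among these samples, which may be technical. In bulk spleen RNA, fewer cells of a type and less RNA per cell cannot be told apart.

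Probe sequences were compared with one another to find members whose signals may be shared. The brighter Ly6c1 probe and the Ly6c2 probe are the same in 57 of 60 bases, and are shown because their signals may come from either transcript. Their last 30 bases are given 5′ to 3′ as in the deposited table, with the bases that differ in capitals.
Ly6c1, brighter probe, bases 31 to 60: tctggggtcctgcagggttcccatgtAtgC
Ly6c2, bases 31 to 60: tctggggtcctgcagggttcccatgtGtgT
Counted from 1 at the 5′ end, with the base of the Ly6c1 probe first, the differences are G8C, A57G and C60T. The dimmer Ly6c1 probe and the Ly6a probe begin with unrelated sequence and are shown for contrast.
Ly6c1, dimmer probe, bases 1 to 30: agcagttacctgccgcgcctctgatggatt
Ly6a, bases 1 to 30: tatgagttatagaagctccaaggtgggagt

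Over the 28 pairs of Ly6 probes, the next most similar pair matched in 27 of 60 bases at the best ungapped shift. Among the 31692 probes of the deposited table, no other probe shared a run of 20 bases with any of the 8, on either strand. Probes were compared only with other probe sequences, not with transcripts. Whether a probe also binds the transcript of another gene was therefore not determined. The array design places the brighter Ly6c1 probe at chr15:74875495-74875554, the dimmer one at chr15:74877785-74877844 and the Ly6c2 probe at chr15:74938637-74938695, all on the minus strand of build mm9. The Ly6a probe lies at chr15:74825553-74825612, Ly6i at chr15:74810484-74810543, Ly6d at chr15:74592551-74592610 and Ly6k at chr15:74627529-74627588, on the same strand, and Ly6e at chr15:74789592-74789651 on the plus strand. Whether a probe lies in coding or untranslated sequence was not determined, and the NOD sequence at these positions was not examined.

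**Figure D1:**
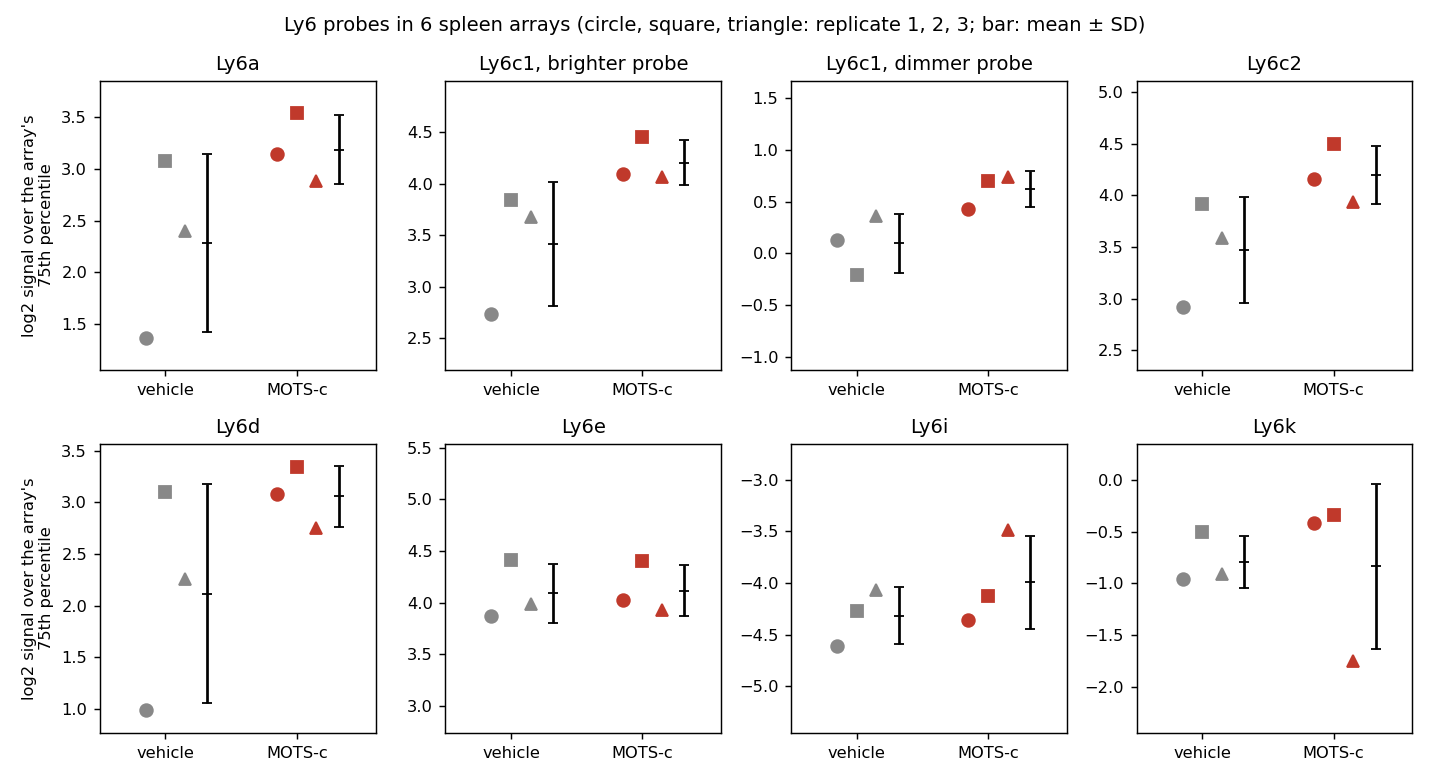
Each panel plots 1 Ly6 probe in 6 arrays as log2 signal over the array's 75th percentile, with vehicle in grey and MOTS-c in red; circle, square and triangle are replicates 1, 2 and 3, and the bar gives mean ± SD (n = 3). Every panel spans the same log2 range. The MOTS-c points lie above all vehicle points for both Ly6c1 probes and for Ly6c2, while vehicle 1 lies lowest for Ly6a and Ly6d.

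The 3 Ly6c probes, which read the Ly-6C antigen genes, were the only members whose MOTS-c values all lay above the vehicle values. The brighter Ly6c1 probe gave, in replicate order, 2.73, 3.84 and 3.67 with vehicle against 4.09, 4.45 and 4.06 with MOTS-c. Vehicle 1 was the low value, well under the other vehicle arrays, and MOTS-c 2 the high one. The means were 3.42 ± 0.60 and 4.20 ± 0.22 (SD, n = 3), a difference of 0.78 ± 0.30 (SE), or 1.72-fold, with an adjusted p of 0.169 by limma over all tested probes.

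Ly6c2 read 2.91, 3.92 and 3.58 in vehicle and 4.16, 4.50 and 3.94 in MOTS-c. The groups were separated narrowly, by vehicle 2 against MOTS-c 3. The difference was 0.73 ± 0.28 (SE), 1.66-fold, with a 95% interval of 0.07 to 1.39 and an adjusted p of 0.171. The log ratio of the brighter Ly6c1 probe to the Ly6c2 probe varied by 0.30 over the 6 arrays, and with 3 differing bases the signals of the 2 genes cannot be told apart. Without vehicle 1 the differences were 0.44 for the brighter Ly6c1 probe and 0.45 for Ly6c2, and with the slide as a block, which rests on vehicle 3 as its vehicle array, 0.53 and 0.62.

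The dimmer Ly6c1 probe, designed on another transcript variant, ordered the arrays in another way. It read 0.13, -0.21 and 0.37 in vehicle and 0.43, 0.70 and 0.74 in MOTS-c, so that vehicle 2, not vehicle 1, was lowest. Its difference of 0.53 ± 0.19 (SE), 1.44-fold, had an adjusted p of 0.157, the smallest of the 8 probes. Leaving out vehicle 1 left it at 0.54, but without vehicle 2, its low array, it was 0.38. With the slide as a block it was 0.26. Against the brighter probe of the same gene, its log ratio varied by 1.45 over the arrays, with the extremes in vehicle 1 and vehicle 2.

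Ly6a, the gene of Sca-1, had a higher mean with MOTS-c but overlapping groups. Its probe gave 1.36, 3.08 and 2.40 with vehicle against 3.14, 3.54 and 2.89 with MOTS-c. Vehicle 1 stood far below all other arrays, and vehicle 2 lay above MOTS-c 3. The difference was 0.91 ± 0.42 (SE), 1.88-fold, with a 95% interval of -0.07 to 1.89 and an adjusted p of 0.219. It was 0.45 without vehicle 1 and 0.11 with vehicle 2 as the sole vehicle array, a setting added with the values in view. Blocked on slide, it was 0.79 for Ly6a and 0.80 for Ly6d.

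Ly6d, a marker of B-lineage progenitors, followed the arrays in the order seen for Ly6a, except that vehicle 2 also passed MOTS-c 1. It read 0.99, 3.09 and 2.26 in vehicle and 3.07, 3.34 and 2.75 in MOTS-c. The difference of 0.94 ± 0.49 (SE), 1.92-fold, was the largest of the 8 probes, and its adjusted p was 0.261. It was 0.38 without vehicle 1 and -0.04 under that added setting. The log ratio of Ly6d to Ly6a varied by 0.39 over the arrays, although the 2 probes matched in no run of 20 bases. Both had a wide spread within vehicle: the SD of 1.06 for Ly6d and of 0.86 for Ly6a exceeded that of 98.1% and 95.9% of tested probes. Which cells of the spleen gave the Ly6d signal was not determined.

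Ly6e, an interferon-inducible member that also marks immature thymocytes, had means that lay close together in the 2 groups. It read 3.87, 4.41 and 3.99 in vehicle and 4.02, 4.40 and 3.93 in MOTS-c, with vehicle 2 and MOTS-c 2 as the high arrays. The difference was 0.03 ± 0.21 (SE), with a 95% interval of -0.46 to 0.51 and an adjusted p of 0.939, and its sign turned without vehicle 1, vehicle 3 or MOTS-c 2. With quantile normalization it was 0.25. The log ratio of Ly6a to Ly6e, as a deviation from its mean over the arrays, was -1.14, 0.03 and -0.22 in vehicle and 0.49, 0.51 and 0.33 in MOTS-c. That ratio, singled out after its values were seen and not tested, was higher on all 3 MOTS-c arrays.

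Ly6i, a member described on myeloid cells, was dim, with signals of 27.7 to 82.3 units. It read -4.61, -4.27 and -4.07 in vehicle and -4.36, -4.13 and -3.49 in MOTS-c, and the groups overlapped. Its difference was 0.32 ± 0.26 (SE, adjusted p 0.442) and 0.07 without MOTS-c 3, the high array. Ly6k, known from testis and sperm, read -0.96, -0.50 and -0.91 in vehicle and -0.41, -0.34 and -1.75 in MOTS-c. A single array, MOTS-c 3, set its mean: the difference was -0.04 ± 0.38 (SE, adjusted p 0.948) with all arrays and 0.41 without that one.

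Of the 8 probes, 7 had a higher mean with MOTS-c and 0 had an adjusted p under 0.05 by limma, which 2 of 33740 tested probes had, both higher, or 0.00593%. Over all tested probes that count was 1113 without vehicle 2, with 144 higher and 969 lower, and 39 without vehicle 3, with 13 higher and 26 lower; 0 of the Ly6 probes were among the called in any of these. Counted by gene at the brightest probe, this was 0 of 7. Of all 22513 tested genes and unnamed probes 0.00888% passed, and of the 16936 tested genes with a symbol 0 did. At an unadjusted p under 0.05 there were 3 probes, the Ly6c ones, beside 25.4% of all tested probes, and 11.3% that were higher. The groups did not overlap in 3 of 8 probes, all higher, against 16.3% of tested probes that were separated as higher and 18.5% as lower. With the brighter Ly6c1 probe and the Ly6c2 probe counted as 1 reading, the 3 probes give 2 readings. The median difference was 0.63 over the 8 probes and 0.02 over all tested probes. Vehicle 1 was the lowest array for 6 of the 8, and for 29.6% of all tested probes. In the authors' deposited table, signed folds ran from -1.04 for Ly6k to 2.06 for Ly6d, and adjusted p-values from 0.371 to 0.952.

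**Figure D2:**
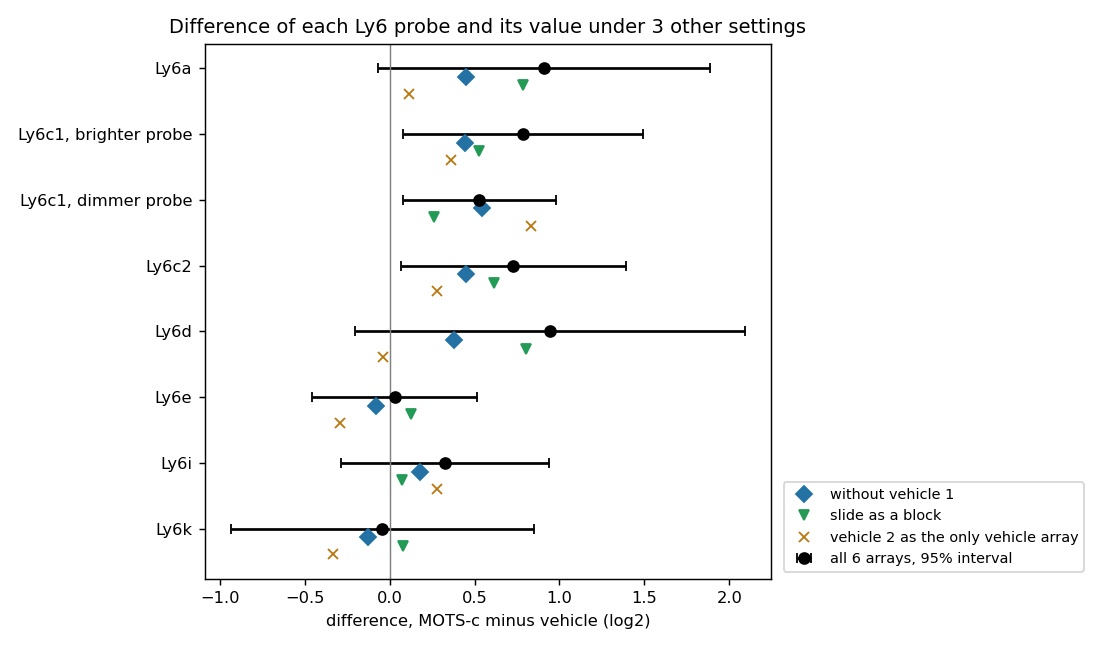
Black points give the difference MOTS-c minus vehicle of each Ly6 probe (log2, all 6 arrays) with its 95% interval from limma; diamonds leave out vehicle 1, triangles use the slide as a block and crosses keep vehicle 2 as the only vehicle array. The intervals of the 3 Ly6c probes lie above 0 before adjustment over all probes, and the crosses of Ly6a, Ly6d and Ly6e lie at 0.11, -0.04 and -0.29.

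Because interferons induce several members, 2 interferon lists were set beside them. The interferon gamma list, which holds genes of antigen presentation and of guanylate-binding proteins, had higher means for 23 of 25 tested genes. Its median was 0.74. The list had 13 of 25 genes with groups that did not overlap, all higher, against 15.8% of tested genes and unnamed probes. Its mean deviation by array was -0.93, 0.11 and -0.22 in vehicle and 0.26, 0.65 and 0.14 in MOTS-c. Ly6a deviated by -1.37, 0.34 and -0.33 and by 0.41, 0.81 and 0.15, so that the list and Ly6a were lowest in vehicle 1 and highest in MOTS-c 2. Of all 16936 tested genes with a symbol 0 passed, and so none of the 25. The smallest p-values were those of the guanylate-binding proteins Gbp2, 2.15-fold higher on the mean with an adjusted p of 0.0970, and Gbp6, which differed by 1.68 ± 0.45 (SE, adjusted p 0.101), followed by Nlrc5, the activator of class I genes, at 1.02 ± 0.30 (0.115).

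The type I interferon list had 22 of 27 genes higher and a median of 0.39. Groups did not overlap for 6 of the 27 as higher and 2 as lower, where 15.8% and 19.1% of tested genes and unnamed probes did so. Oasl2, an oligoadenylate synthetase-like protein, differed by 1.27 ± 0.28 (SE, adjusted p 0.0809). Rsad2, the antiviral enzyme viperin, differed by -1.32 ± 0.32 (0.0896) and Isg20, an exonuclease, by -1.12 ± 0.21 (0.0795). By array this list deviated by -0.81, 0.40 and -0.20 in vehicle and 0.32, 0.39 and -0.10 in MOTS-c. Vehicle 2 and MOTS-c 2 were thus its high arrays at nearly equal values, as they were for Ly6e at 0.31 and 0.30. With vehicle 2 as the only vehicle array the median of the type I list was -0.13, against 0.24 for the interferon gamma list. Without vehicle 1 the type I median was 0.10.

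Marker lists of cells that carry Ly6 antigens varied over the same arrays. The T cell list was higher in 18 of 18 genes (median 0.93), the CD8 and effector memory list in 14 of 14 (0.82), the B cell list in 14 of 14 (0.72) and the B cell precursor list in 8 of 8 (0.74). In that order, groups did not overlap for 17, 5, 7 and 3 genes, all higher, against 15.8% of tested genes and unnamed probes. Il7r and Lef1 stand in both the T cell and the B cell precursor list. Together with Bst1 they were the 3 separated genes of the precursor list. Groups overlapped for its other tested genes, Vpreb1, Vpreb3 and Dntt among them. All 4 lists were lowest in vehicle 1, at deviations of -0.997 to -1.42. Like Ly6a and the interferon gamma list, the CD8 and effector memory list was highest in MOTS-c 2, at 0.63, and the others were highest in MOTS-c 1. Without vehicle 1 their medians were 0.41, 0.37, 0.31 and 0.40, and that of the interferon gamma list was 0.47. Blocking on slide gave 0.38, 0.35, 0.50 and 0.17 in the same order, and 0.59 for interferon gamma. Monocyte genes were higher in 13 of 14, with a median of 0.40 that was 0.17 without vehicle 1, plasma cell genes in 10 of 11 (0.27, and 0.0755 without vehicle 1), plasmacytoid dendritic cell genes in 8 of 10 (0.52, and 0.0507 without it), and endothelial and stromal genes in 11 of 15 (0.16). Genes of stem and progenitor cells, which Ly6a marks, were higher in 9 of 10 (0.33). That median was 0.0436 with the slide as a block and 0.19 without MOTS-c 1. Blocking on slide also gave 0.13 for monocyte, 0.21 for plasmacytoid dendritic cell and 0.0978 for endothelial and stromal genes. Over the 9 alternatives computed for the lists, the plasma cell median ran from -0.17 to 0.54 and the neutrophil median from -0.08 to 1.83. Over all 16936 tested genes with a symbol, 8970 were higher, the median was 0.03 and 0 passed the test. No gene of these lists therefore passed it. Among them, Cxcr5, the follicle homing receptor of B cells, differed by 0.87 ± 0.32 (SE, adjusted p 0.160) and Ms4a6c, a monocyte gene, by 0.46 ± 0.18 (0.169). The part of these cells in the Ly6 values was not tested.

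The erythroid and proliferation lists ran the other way. Erythroid genes were lower in 15 of 15 (median -1.29) and proliferation genes in 14 of 14 (-1.17), and both were highest in vehicle 1, at 0.96 and 0.99. Red pulp macrophage genes were lower in 10 of 12 (-0.12), a median that was 0.08 with quantile normalization. Neutrophil genes were higher in 13 of 14 (0.89), but with vehicle 2 lowest at -1.29 and MOTS-c 3 at -0.65, and a fit that blocked on slide gave a median of -0.08.

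**Figure D3:**
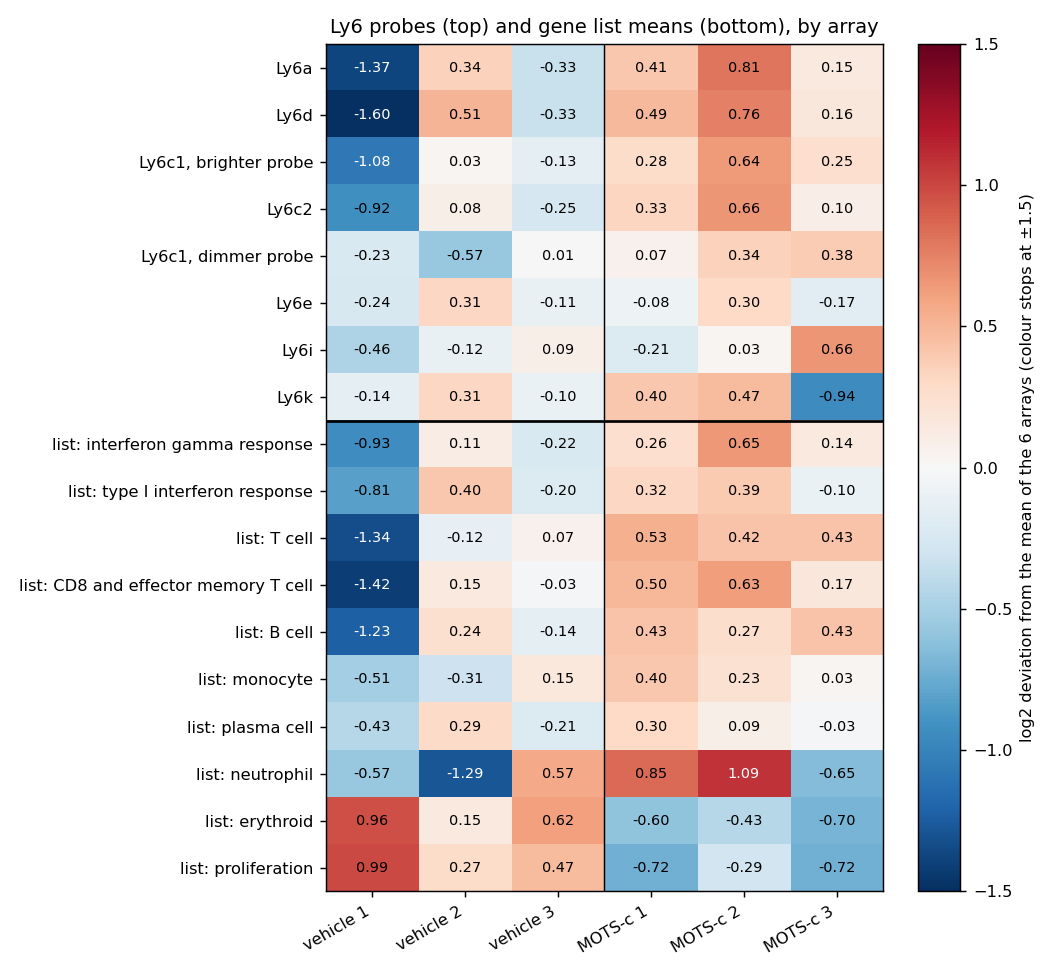
The colour and number in each cell give the log2 deviation of a Ly6 probe (upper rows) or of the mean of a gene list (lower rows) from its mean over the 6 arrays; columns are arrays. Ly6a, Ly6d, the brighter Ly6c1 probe and Ly6c2 are highest in MOTS-c 2 and lowest in vehicle 1; the interferon gamma, T cell and B cell lists are also lowest in vehicle 1, while the erythroid and proliferation lists are highest in vehicle 1.

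For each member, the 3 named genes with the most similar profile were sought by Pearson's r over the 6 arrays among 8325 genes. The group difference enters each r, 6 arrays are few for so many genes, and the values are descriptions. For Ly6a they were Gbp4 (r = 0.9996), Psmb9 (0.998) and Bcl2a1c (0.997), which differed by 0.70, 0.68 and 0.50. For Ly6d they were Prrg4 (0.999), Aif1 (0.998) and Bcl2a1c (0.997). For the brighter Ly6c1 probe they were F2rl1 (0.998), Dram1 (0.998) and Mov10 (0.997), and for Ly6c2 Psme2b (0.999), Cd1d1 (0.996) and Naaa (0.995). For Ly6e, Cd44 came first at 0.991, with a difference of 0.05, followed by Ppm1n at 0.984 and Alpl at 0.964. Ly6i and Ly6k had looser neighbours: Neil1 (0.975), Nme5 (0.970) and Tpbg (0.969) for Ly6i, and, for Ly6k, Cstdc5 (0.952) and Stfa1 (0.945) ahead of an immunoglobulin gene segment.

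The wider Ly6 and urokinase receptor superfamily had means in both directions. Of 33 listed relatives, 21 had a tested probe, 11 with a higher and 10 with a lower mean, and the median was 0.02. None passed the test, as was so for all 16936 tested genes with a symbol. At the brightest probe, groups did not overlap for 1 relative as higher and 4 as lower, where 15.8% and 19.1% of tested genes and unnamed probes did so. The complement inhibitors Cd59a and Cd59b, which guard cells against the membrane attack complex, were lower with groups that did not overlap: Cd59a read 3.33, 1.24 and 2.24 in vehicle and 0.58, 0.58 and 0.81 in MOTS-c, a difference of -1.62 ± 0.47 (SE, adjusted p 0.115). The second probe of Cd59a differed by -1.57, and Cd59b by -0.81 ± 0.22 (0.109). Slurp2 and Ly6g5b were lower by the same criterion, at -0.25 and -0.31, and Ly6g6e, a dim probe, was higher at 0.33. A dim probe of Lypd6 was also separated, at 0.64, but the other probe of that gene differed by -0.44.

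Neighbours on chromosome 15 did not share 1 value. In RefSeq's gene order (GRCm38.p6) Ly6e, Ly6i, Ly6a, Ly6c1 and Ly6c2 follow one another, and their differences at the brightest probe were 0.03, 0.32, 0.91, 0.78 and 0.73. Ly6d and Ly6k lie at the other end of the cluster, with 0.94 and -0.04. Between the ends, Gml and Gml2 differed by 0.29 and -0.67, but a second Gml2 probe differed by 0.63. Beyond Ly6c2, Ly6g, the neutrophil antigen of the family, read -4.08, -4.21 and -2.48 in vehicle and -1.30, -1.17 and -4.15 in MOTS-c, a difference of 1.38 ± 0.84 (SE, adjusted p 0.323). Those groups overlapped, and MOTS-c 3, low for Ly6g, was also low for the neutrophil list. Ly6f, a dim neighbour, differed by 1.31 ± 0.71 (0.277).

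**Figure D4:**
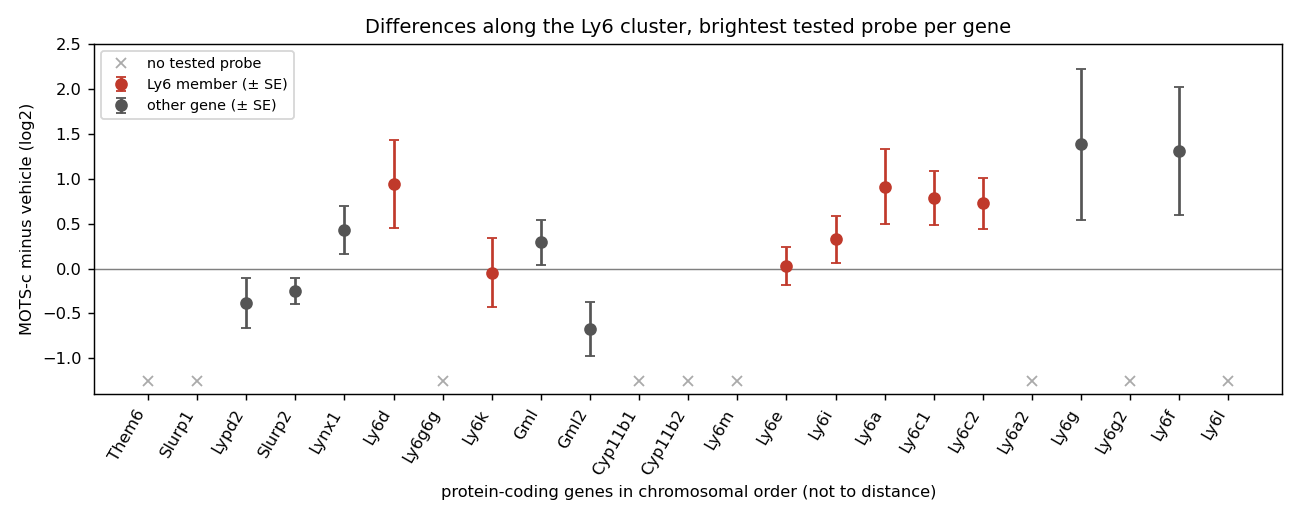
Points give the difference MOTS-c minus vehicle (log2, ± SE) at the brightest tested probe of each protein-coding gene from 5 genes before Ly6d to 5 after Ly6c2, in RefSeq order and not to distance; Ly6 members are red, other genes dark grey, and light crosses mark genes with no tested probe. Ly6a, Ly6c1 and Ly6c2 sit side by side at 0.73 to 0.91, with Ly6e and Ly6k at 0.03 and -0.04.

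Upstream sequence in the reference table covered Ly6c1 and Ly6c2, with a pair of start sites each. In the 250 bases before each start, neither the core of an interferon-stimulated response element (GAAA, 2 bases of any kind, GAAA) nor a STAT site (TTCNNNGAA) was found on either strand. Of all 32851 promoter windows of that length, 2.98% and 7.02% hold them. This says only that these letters are not in these windows. The windows are those of the GRCm38.p6 reference, and the NOD sequence there was not examined.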

How the data were processed

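Spleen RNA of 6 samples was read on 1-colour Agilent arrays; group and replicate number came from the sample titles. Per the file headers, Agilent Feature Extraction 11.0.1.1 gave a background-subtracted processed signal intensity per spot, not normalized between arrays. The authors' deposited table holds log2 values of those signals, quantile normalized to judge from their equal distributions, with the authors' signed fold as a score, a p-value and its Benjamini-Hochberg adjustment, for 31692 probes. Its processed signals equalled the scanner output within a relative tolerance of 0.0001 for 100% of probes. Sequences and mm9 coordinates are those of that table.

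Control spots and spots flagged as outliers (97 to 145 per array) were left out, and spots of 1 probe were averaged. A probe entered the test if either group had it well above background on each of its 3 arrays. The test was limma 3.58.1 in R 4.3.3 (lmFit, eBayes), two-sided, adjusted over all tested probes, threshold 0.05. A list was described at the brightest tested probe per gene. Genes named from a list, up to 3, are among those with its smallest p-values; similar genes needed an SD of at least 0.25. The members and lists were chosen with earlier results of these data known. An exact permutation test of 3 against 3 cannot go below 0.1 and was not used. On simulated data of 33740 probes for this comparison, the fit called 24 of 100 probes with a true log2 difference of 1, 71 of 100 with a difference of 2, and 3 of 33540 with none. The simulated noise was independent between probes, whereas whole gene lists moved together by array in the data. These counts therefore need not hold for the data. The 18 alternatives covered normalization, background, filters, blocks, array weights and left-out arrays. Title and description disagree on the number of replicate 3 in both groups. Protein sequences were not used here.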

Additional observations from a re-analysis of the deposited data

How the results depend on the processing

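None of the 8 Ly6 probes passed under any of 18 alternatives, where their adjusted p-values by limma ran from 0.0895 to 0.9998; unadjusted p-values under 0.05 were found for 0 to 5 of them. Both Ly6c1 probes, Ly6c2, Ly6a and Ly6i stayed higher in every alternative that tested them, between 0.26 and 0.83 for the dimmer Ly6c1 probe, 0.36 and 1.00 for the brighter one, 0.28 and 0.95 for Ly6c2, 0.11 and 1.31 for Ly6a and 0.07 and 0.51 for Ly6i. Ly6d reversed to -0.0382 with vehicle 2 as the only vehicle array, where Ly6e was -0.29. Ly6e also reversed when an array was left out, to -0.0823 without vehicle 1, -0.0213 without vehicle 3 and -0.11 without MOTS-c 2, within a range of -0.11 to 0.19 over the 6 arrays left out in turn. Ly6k reversed to 0.0767 with the slide as a block and within slide 2, 0.0995 without vehicle 2 and 0.41 without MOTS-c 3. Its range was -0.29 to 0.41 over the 6 arrays left out in turn, and -0.33 to 0.41 over all alternatives. The median of list genes reversed for red pulp macrophages with quantile normalization (0.0824). With the slide as a block it reversed for relatives (-0.0669) and neutrophils (-0.0805). Without MOTS-c 3 it reversed for relatives (-0.0261, against up to 0.0808 with another array left out). With vehicle 2 alone it reversed for type I interferon (-0.13), plasma cells (-0.17) and pancreas (0.14). List medians were computed under only 9 of the 18 alternatives. The cause of the reversals was not tested.

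The count of 2 called probes among all tested was 0 with normexp before quantile normalization, the authors' normalized values, no filter on dim probes, a filter on all 6 arrays, within slide 2 and with vehicle 2 alone, and 1 with the slide as a block. Leaving out 1 array gave 0 to 1113, the highest without vehicle 2 (969 of them lower), and 39 without vehicle 3 (26 lower). At an unadjusted p under 0.05, limma found 8555 probes with all arrays, and 3203 to 10083 under the alternatives. Samples with the same number did not deviate together (r = -0.17, 0.0064 and -0.090), so the numbers were not taken as pairs; with the replicate block 0 probes passed, and 5 Ly6 probes had an unadjusted p under 0.05. The median of all probes moved by less than 0.1 under every scaling. Normexp on mean signals was not run; median signals took their place, and that setting and vehicle 2 alone were chosen after seeing the data. With 1 vehicle array, that array is assumed to vary like the MOTS-c arrays. Ly6i, at under 100 signal units, is read least firmly.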

Other observations

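Several relatives of the family, singled out after their values were seen, had probes that differed in opposite directions. Ly6g6c, of the class III region of the major histocompatibility complex, differed by -0.16 at one probe and 0.29 at another, and Ly6g6d by -0.33, 0.47 and 1.13 over its 3 probes. In all, 4 relatives had probes with means in both directions, Gml2 and Lypd6 being the others. For each of the 4, the groups overlapped at all probes except 1 of Lypd6.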
